A study of Mus musculus with 9 samples.

Results

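The comparison set 3 libraries of nascent RNA from mouse CD8+ T cells under chronic stimulation against 3 libraries from the same cell type under acute stimulation, 6 of the 9 libraries of the series. The libraries were chosen by their labels alone. The remaining 3 libraries, from chronically stimulated cells given a MEK inhibitor, entered the statistical fit only to help estimate the spread between replicates. All cells were pulsed with 0.2 mM 5-ethynyl uridine for 30 min, so that RNA made during the pulse could be coupled to biotin, pulled down on streptavidin beads and sequenced. The strain, the stimulus, its length and whether replicates came from separate animals or cultures are not given in the sources used here, so p-values measure the spread between these libraries, which may be technical. The question, per the series' design text, is how new transcription changes with T cell exhaustion. Genes of the usual exhaustion lists (inhibitory receptors, TOX and NR4A factors, stem-like genes and granzymes among them) are given as a count, apart from Ifng, and the description is of the genes and pathways beyond them.

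Nascent RNA follows the work of RNA polymerase more closely than total RNA, because most of what is labelled in a short pulse has not yet been spliced, exported or degraded. RNA polymerase II commonly pauses shortly after the start site, and signal over the gene body is read here as the product of polymerase released into elongation. A CD8+ T cell that meets its antigen briefly expands, gains effector functions and later returns to rest, whereas antigen that persists drives a state known for inhibitory receptors and altered cytokine output. Activated T cells also build membranes, sense interferons, fold many new proteins and copy their genome, and the gene lists below follow these tasks.

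The deposited gene-body signal summed to 48601757 to 50844128 per acute library and 49671813 to 50797428 per chronic library. Rows that hold ribosomal RNA-like sequence took 19.1 to 22.3% of this sum in the acute libraries and 34.2 to 40.6% in the chronic libraries, without overlap (difference of means 16.2 percentage points, two-sided exact permutation p = 0.1, the smallest value that 3 against 3 libraries allow). These rows were removed before scaling. Among the markers of CD8+ T cells, Cd8a, Cd8b1, Cd3e and Thy1 were all well above the lower limit of 50, and 5 of the 7 genes were lower in the chronic libraries. Of the markers of other blood cells, all 6 neutrophil and all 6 erythroid markers and 6 of 8 monocyte and macrophage markers were under 50 in all 6 libraries, as were Ms4a1 and Cd79b of the B cell list. The summed B cell markers ran from 879 to 1120 in the acute and from 464 to 506 in the chronic libraries. Markers of CD4+ helper and regulatory T cells summed to 19700 to 26300 in acute and 10500 to 11400 in chronic libraries. Of these 4 markers 1 was higher and 2 were lower, Lrrc32, a regulatory T cell gene (-3.04), and Cd4 (-0.97). Lrrc32 alone went from a mean of 15766 to 1915. Plasma cell markers summed to 45.1 to 61.8 in acute and 132 to 182 in chronic libraries, with 1 of 4 higher and 3 under 50 in all 6 libraries. Gamma-delta T cell markers summed to 768 to 1150 in acute and 405 to 671 in chronic libraries, with 3 of 5 lower, and NK cell markers to 1490 to 2090 and 1500 to 3390, with 1 higher and 1 lower. The part of other cell types in the results was not tested.

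Gene-body signal differed widely between the conditions. Of 15938 genes with enough signal to be tested, 2870 were higher in the chronic libraries (18% of those tested) and 2413 were lower (15.1%; limma on log2(scaled signal + 5), Benjamini-Hochberg adjusted p below 0.05). The median log2 fold change over all genes tested was -0.01. The genes tested lie on chromosomes 1 to 19, so X- and Y-linked genes are not covered. Changes beyond 1 on the log2 scale were seen for 1222 of the higher and 978 of the lower genes, and beyond 3 for 73 and 88. In bulk libraries a change in how many cells make an RNA and a change in how much each cell makes cannot be told apart. The split between higher and lower depended on how libraries were put on a common scale: with library totals that still include the ribosomal RNA-like rows, the counts were 1092 higher and 6844 lower, and the median of all genes moved to -0.50. On the deposited scale they were 1130 and 6713. Fold changes below are relative to the typical gene, and a list whose median lies near 0 has no scale-free direction. Of the genes tested, 64.8% overlap another annotated gene, and since the strand setting of the counting is not given in the sources used here, signal of overlapping genes, antisense genes included, could be shared. Of the genes tested, 195 were under 50 in all 3 acute libraries and 989 in all 3 chronic libraries, so these passed the filter through the other groups, and a gene that passed through the group where it is high had to differ. Among the genes named below this holds for Tm7sf2, Fads3, Hspa1b, Cth, P4ha2, Pycr1, Penk, Ccl3, Ccl4, Il1r2 and Ehd2 in the acute and for Ifi203, Ifi213, Ifi208, Slfn5, Cd86, Nsg2, Nipal1, Gpr83, Nckap5los and Tyrobp in the chronic libraries. The libraries of the groups did not overlap in 7037 of the 15938 genes, and genes named for their large changes were chosen among these.

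**Figure D1:**
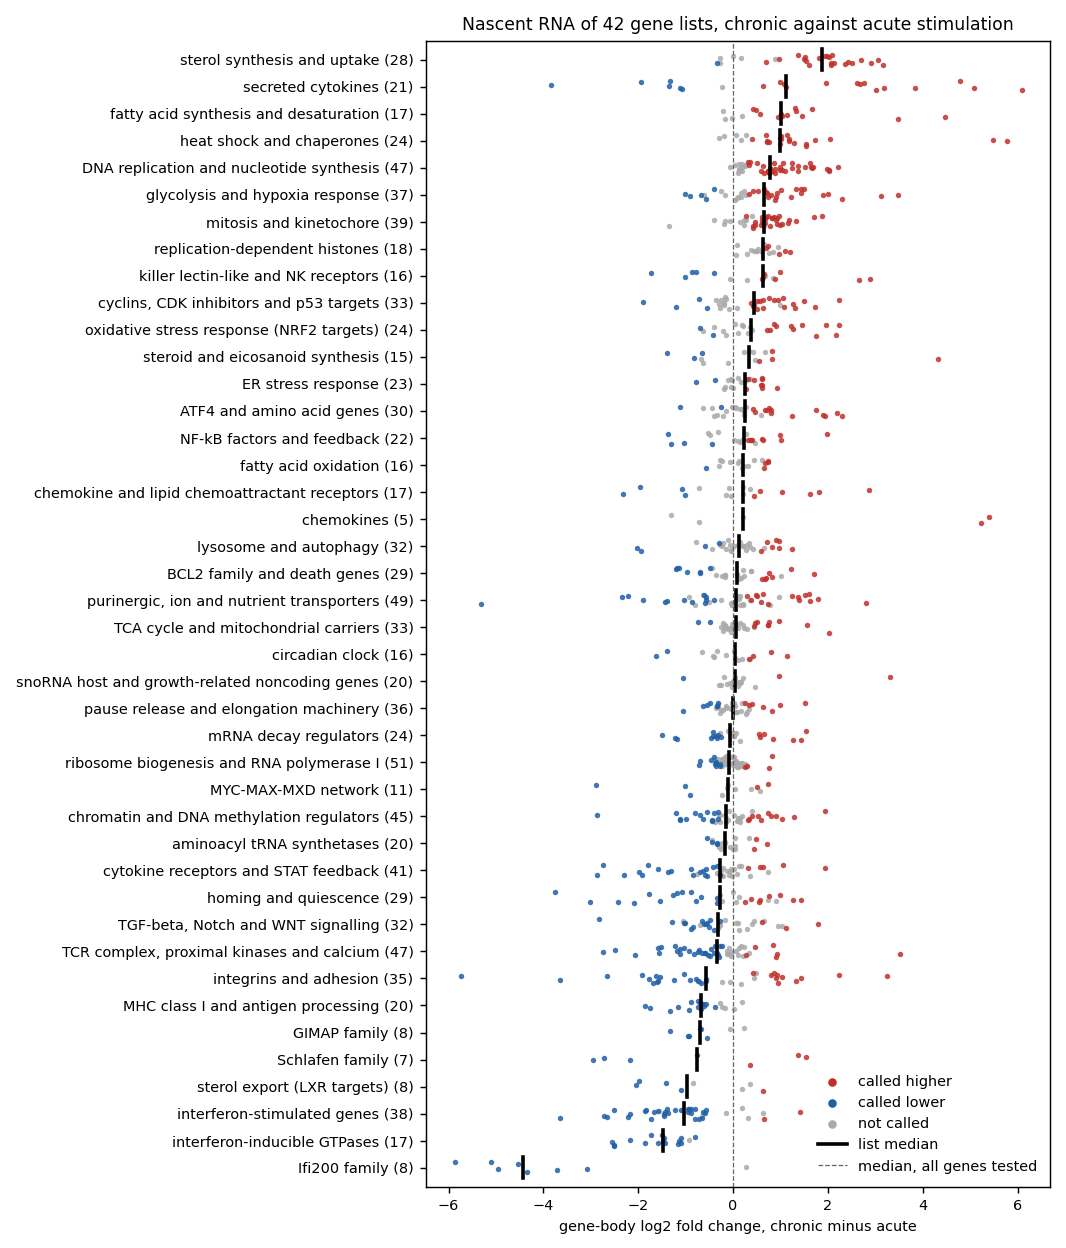
Gene-body log2 fold changes (chronic minus acute, horizontal axis) of the tested members of 42 gene lists, with the number tested in parentheses. Points are genes, red called higher, blue called lower and grey not called; black bars are list medians and the dashed line is the median of all genes tested. Sterol synthesis and uptake has the highest median, 1.88, and the Ifi200 family the lowest, -4.44. Some members of that family were under 50 in every chronic library.

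The usual exhaustion list behaved as a mixed group, with 28 of 51 tested members higher, 18 lower and a median log2 fold change of 0.48 (19 higher, 21 lower and -0.02 with library totals). In the 42 other lists, 1071 different genes were tested, 350 were higher and 286 were lower. These lists were assembled with earlier results of the same data known, so their counts describe the comparison and give no independent support.

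Sterol synthesis rose almost throughout. Of 28 genes for sterol synthesis and uptake, 22 were higher, 1 was lower and 5 were not called, and the median log2 fold change was 1.88 against -0.01 over all genes. Hmgcs1 encodes a synthase early in the pathway. Its scaled signal (the deposited signal divided by a library factor) was 1766, 1944 and 2502 in the acute libraries and 16876, 18414 and 20240 in the chronic libraries. The groups were far apart, and the log2 difference was 3.17 ± 0.12 (SE; adjusted p = 2.78e-13). Mvk, the mevalonate kinase, stood at 317, 404 and 265 in acute and 2874, 2414 and 2176 in chronic libraries, a log2 fold change of 2.91 ± 0.17. Fdft1, the squalene synthase that commits the pathway to sterols, rose by 2.70 ± 0.10, and Tm7sf2, a late reductase, by 3.06 ± 0.38 from a low level. The factor that drives these genes, Srebf2, rose by 0.70 ± 0.11, while Scap, which escorts it from the endoplasmic reticulum, was the only lower member (-0.34 ± 0.13, adjusted p = 0.0476, groups overlapping). Npc1, Npc2, Insig2 and Ggps1 were among the genes not called. Over the pause region (the window near the start site that the authors summed separately), 13 of 20 tested members were higher and none lower, against 5.19% higher and 5.42% lower of all genes tested there, with a median of 1.60.

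The promoter of Hmgcs1 is shown because this gene rose most and, among the 19 tested members with a RefSeq promoter (GRCm38.p6), was the 1 that holds TCACNCCAC, a form of the sterol regulatory element, on either strand. The same letters occur in 1.11% of the 10807 promoters of tested genes. Printed 5′ to 3′ along the plus strand, chr13:119690101-119690400 runs from 250 bases before to 50 bases after the RefSeq start, and the match is in capitals.
Hmgcs1: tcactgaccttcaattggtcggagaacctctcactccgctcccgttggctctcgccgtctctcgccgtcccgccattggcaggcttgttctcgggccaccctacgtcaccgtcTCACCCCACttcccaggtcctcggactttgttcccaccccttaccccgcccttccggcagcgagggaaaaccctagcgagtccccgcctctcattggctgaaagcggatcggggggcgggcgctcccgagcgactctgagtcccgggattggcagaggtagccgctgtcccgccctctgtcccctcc

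Genes of the sterol export list leaned the other way. Its 8 tested members were targets of the liver X receptors, which respond to oxidised sterols, and the genes of these receptors. Of the 8, 4 were lower and 1 was higher, with a median of -0.97. Abcg1, a cholesterol exporter, gave 2013, 2852 and 2121 in acute and 394, 701 and 609 in chronic libraries, without overlap (log2 fold change -2.05 ± 0.19). Abca1, the other main exporter, fell by 1.10 on the log2 scale, Arl4c by 1.98 and Mylip, a ubiquitin ligase gene, by 1.42. Lpcat3, which remodels phospholipids, was the higher member (0.62). The genes of the receptors themselves, Nr1h2 (0.37) and Nr1h3 (-0.85), and Apoe (0.18) were not called.

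Fatty acid synthesis and desaturation rose with the sterol genes. Of 17 members 13 were higher and none was lower (median 1.00). The largest differences were in desaturases, the enzymes that place double bonds. Fads2 went from 265, 191 and 254 to 5740, 5061 and 4994, the groups being far apart (log2 fold change 4.46 ± 0.14, adjusted p = 6.78e-14). Scd1, the stearoyl-CoA desaturase, went from 206, 251 and 282 to 2655, 2680 and 2953 (3.47 ± 0.15), and its relative Scd2 rose by 1.67. Fads3, which lies beside Fads2 on chromosome 19 and was on no list, rose by 3.24. Fasn, the fatty acid synthase, rose by 1.03 ± 0.12 and its driver Srebf1 by 0.58 ± 0.12. Elovl5 (0.20), Me1 (-0.03), Acacb (-0.16) and Acss2 (-0.22) were not called. In fatty acid oxidation, the opposing process, 4 of 16 genes were higher and 1 was lower with a median of 0.21. Among the higher genes were Etfb (0.73), Etfdh (0.68) and Acadl (0.66), and the lower was Hadhb (-0.57). With library totals that median became -0.29, with 0 higher and 4 lower.

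**Figure D2:**
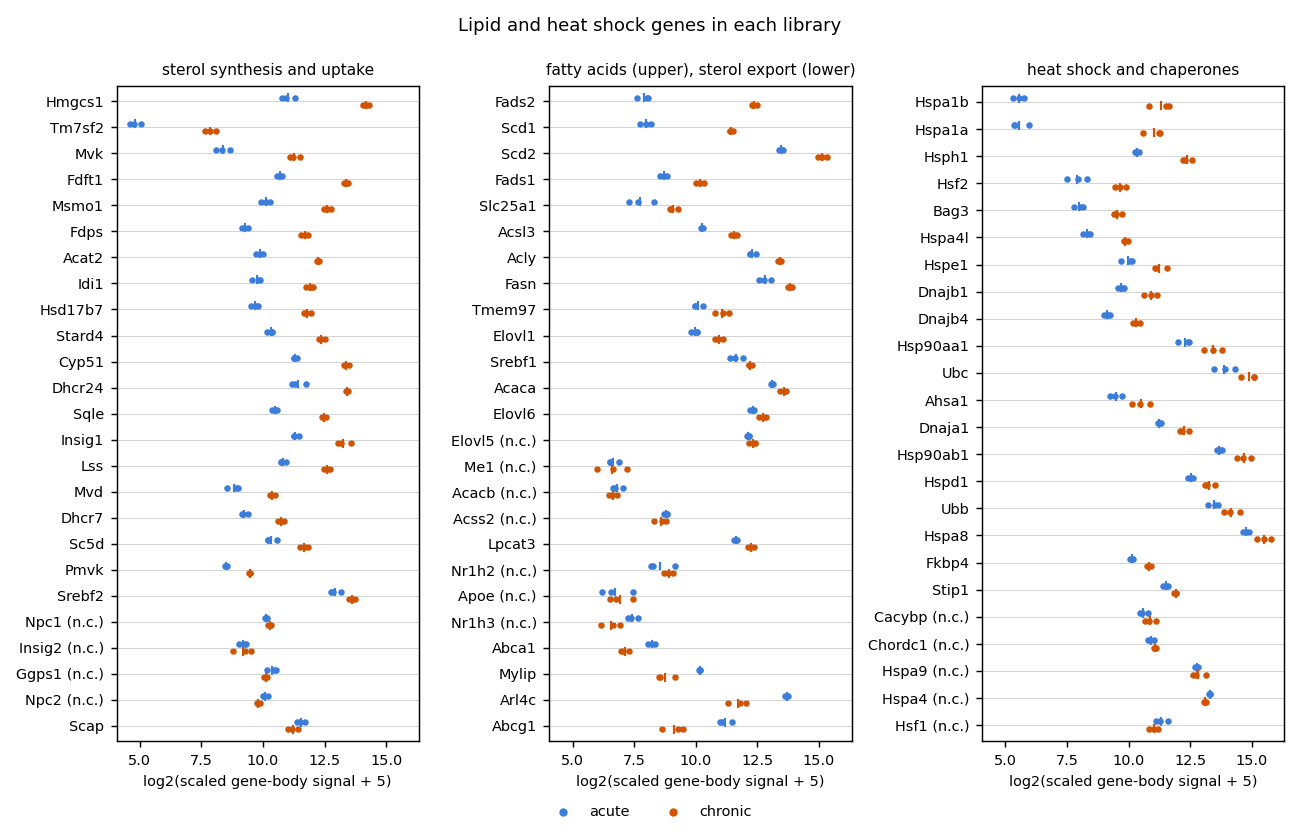
Scaled gene-body signal of tested members of the sterol, fatty acid, sterol export and heat shock lists, as log2(signal + 5) on the horizontal axis, with 1 point per library (blue acute, orange chronic) and a tick at the mean of 3 libraries; n.c. marks genes not called. Hmgcs1, Fads2 and Hspa1b show wide gaps between the groups, and Abcg1 a gap in the other direction.

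Heat shock genes rose as a group. Of 24 tested chaperones and regulators 19 were higher and none was lower, with a median of 1.00. The 2 stress-inducible Hsp70 genes, which are near-identical copies whose reads the counting could split, rose most: Hspa1b gave 35.1, 42.4 and 49.2 in acute and 1809, 2944 and 3167 in chronic libraries, and Hspa1a rose by 5.48 ± 0.27. Hsph1, an exchange factor for Hsp70, went from 1370, 1221 and 1264 to 5054, 4797 and 6164 without overlap (2.04 ± 0.12). Hsf2, a heat shock transcription factor, rose by 1.74 ± 0.22 and Bag3, an Hsp70 partner in autophagy, by 1.55 ± 0.21. The major inducible Hsp90 gene, Hsp90aa1, rose by 1.13 ± 0.16, and the abundant constitutive Hsp70 gene Hspa8 by 0.71 ± 0.12. Hsf1, the main activator of the response, was at 2446, 3129 and 2218 in acute and 2342, 2110 and 1821 in chronic libraries. Those ranges overlap, and its difference was not called (-0.30 ± 0.14, adjusted p = 0.108). In the pause region 7 of 18 members were higher and none lower.

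The promoter of Hsph1 is shown as the called member with the largest change, among those with a promoter sequence, that holds TTCNNGAA, the paired unit of the heat shock element. These letters read the same on both strands. They occur in 4 of 18 heat shock promoters and in 7.21% of all promoters of tested genes. The sequence lies on the minus strand at chr5:149636287-149636586, runs 5′ to 3′ and has its matches in capitals.
Hsph1: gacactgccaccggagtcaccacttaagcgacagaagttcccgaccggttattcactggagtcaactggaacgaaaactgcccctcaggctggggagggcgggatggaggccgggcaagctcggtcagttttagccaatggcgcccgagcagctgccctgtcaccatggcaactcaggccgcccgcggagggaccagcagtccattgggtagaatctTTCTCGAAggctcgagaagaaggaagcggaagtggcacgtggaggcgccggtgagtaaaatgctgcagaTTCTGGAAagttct

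Stress programmes of the endoplasmic reticulum and of amino acid supply changed less evenly. Of 23 genes of the response to unfolded protein in the endoplasmic reticulum, 9 were higher and 2 lower (median 0.25), with Ern1, its sensor kinase, at 0.93 and Herpud1, a degradation factor, at -0.79. Without acute replicate 1, 5 were higher. Of 30 genes tied to ATF4, the factor of the integrated stress response, 13 were higher and 2 lower, also with a median of 0.25. Cth, which makes cysteine, had the largest value (2.29 ± 0.66) at signals of 2.02 to 33.1 in acute and 74.0 to 82.8 in chronic libraries, followed by the transcription factors Atf3 (2.19) and Atf5 (1.94) and the glycine transporter gene Slc6a9 (1.90), and Trib3, a feedback inhibitor, fell by 1.12. Asns, the asparagine synthetase often read as a marker of this response, was not called (-0.33). Among 20 cytosolic aminoacyl tRNA synthetases, which charge tRNA with amino acids, 3 were higher and 4 lower (median -0.17), the latter 2 without chronic replicate 2. These shares are near the 18% higher and 15.1% lower of all genes. With library totals the endoplasmic reticulum list had 1 higher and 10 lower, the ATF4 list 6 and 8 and the synthetase list 0 and 16, so the direction of these lists depends on the scale. TGATGNAA, part of the composite ATF4 site, was found in 6 of 27 promoters of the ATF4 list and in 2.21% of all promoters.

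Glycolysis and hypoxia genes were mostly higher, 22 of 37 against 5 lower, with a median of 0.65. Epas1, which encodes the oxygen-regulated factor HIF-2α, went from 811, 866 and 688 in acute to 8498, 9582 and 8208 in chronic libraries. The groups did not overlap, and the log2 fold change of 3.47 ± 0.11 was the largest of the list. P4ha2, a collagen prolyl hydroxylase, rose by 3.12 ± 0.55 from a low level and Slc16a3, the lactate exporter, by 2.29 ± 0.26. Vegfa, a growth factor for vessels, went from 251, 376 and 235 to 1120, 1374 and 953 and was called higher. Glycolytic enzymes rose by less, with Gapdh at 1.44, Tpi1 at 1.43, Aldoa at 1.32 and Pkm at 0.91. The members that fell were Mxi1 (-1.01), Pfkp (-0.90), Pdk1 (-0.69), Egln3 (-0.57) and Kdm3a (-0.40). Pfkp encodes the platelet form of phosphofructokinase, while Pfkl, its liver form, rose by 1.01. The glucose transporter genes Slc2a1 (0.10) and Slc2a3 (-0.18) were not called. With library totals the list had 12 higher and 10 lower.

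Genes of mitochondrial metabolism had a median near that of all genes, though their counts leaned to the higher side. Of 33 genes for the tricarboxylic acid cycle and mitochondrial carriers, 9 were higher and 2 lower with a median of 0.06 (3 higher and 18 lower with library totals). Of all genes, 18% were higher and 15.1% lower. Among the higher members, Idh1, which makes NADPH outside the mitochondrion, rose by 2.02 ± 0.41 and Aco1, the iron-responsive aconitase, by 0.97. Slc25a10, a dicarboxylate carrier, rose by 1.56. Of 24 targets of NRF2, which answers oxidative stress, 11 were higher and 2 lower (median 0.38, or -0.10 with library totals, with 9 higher and 7 lower). The metallothionein genes Mt2 (2.24) and Mt1 (1.97), which bind metal ions, and Gpx4 (2.16), which clears lipid peroxides, rose most. Ferritin genes Ftl1 (1.46) and Fth1 (1.25) also rose. Nfe2l2, which encodes NRF2, fell by 0.70, and the classic target Nqo1 (0.40) was not called.

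Interferon-stimulated genes fell as a group. Of 38 tested, 30 were lower and 2 higher, with a median of -1.03, against 15.1% lower among all genes. Isg20, an antiviral exonuclease, gave 804, 991 and 822 in acute and 82.8, 69.1 and 47.1 in chronic libraries. The groups were far apart (log2 fold change -3.65 ± 0.26). Stat2 and Irf9, factors of the type I interferon response, fell by 0.72 and 0.89, and Irf7, which amplifies the type I response, fell by 1.73. The antiviral sensor Zbp1 fell by 2.51 and Samd9l, a restriction factor, by 2.66. Ifitm2, an antiviral membrane protein gene, was higher (1.42 ± 0.35), as was Mx1 (0.66). Bst2 (0.32) and Ifit2 (-0.15) were not called, so the fall did not extend to every member. Over the pause region 8 of 18 members were lower and 1 was higher. The gene of interferon gamma itself, Ifng, which belongs to the exhaustion list, went from 132, 114 and 167 to 1483, 1867 and 2190.

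The promoters of Slfn8 and Samd9l are printed because they are the interferon-stimulated genes with the largest changes that hold GAAANNGAA, a core of the interferon-stimulated response element. Of 28 promoters of the list 14 hold it, against 7.28% of all promoters of tested genes. Both lie on the minus strand, Slfn8 at chr11:83020761-83021060 and Samd9l at chr6:3399522-3399821, and run 5′ to 3′. Capitals mark the match, which in Slfn8 is on the opposite strand.
Slfn8: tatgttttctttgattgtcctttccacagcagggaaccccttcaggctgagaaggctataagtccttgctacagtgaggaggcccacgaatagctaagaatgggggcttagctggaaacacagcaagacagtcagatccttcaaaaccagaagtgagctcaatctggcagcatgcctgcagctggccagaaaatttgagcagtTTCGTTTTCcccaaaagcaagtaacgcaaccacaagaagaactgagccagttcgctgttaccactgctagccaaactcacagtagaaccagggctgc
Samd9l: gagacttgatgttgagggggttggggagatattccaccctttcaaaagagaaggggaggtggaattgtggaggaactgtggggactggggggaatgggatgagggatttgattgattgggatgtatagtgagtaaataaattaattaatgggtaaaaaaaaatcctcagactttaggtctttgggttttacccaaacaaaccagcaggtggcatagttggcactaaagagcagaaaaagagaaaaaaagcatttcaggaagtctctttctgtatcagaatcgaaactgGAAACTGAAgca

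The Ifi200 family, DNA sensors encoded side by side on chromosome 1, fell furthest. Of 8 tested members 7 were lower, with a median of -4.44. Several of these, Ifi203, Ifi208 and Ifi213 among them, were under 50 in every chronic library and passed the filter through the other groups. A member that passed through the acute libraries alone had to differ. Ifi203 went from 588, 534 and 584 to 21.6, 10.9 and 5.74 (-5.11 ± 0.36), and Ifi213 from 360, 354 and 298 to 9.08, 0 and 13.8 (-4.96 ± 0.60). Such low chronic values make the fold changes depend on the added constant of 5. Aim2, the inflammasome sensor at the edge of the same cluster, was at 2285, 2442 and 2200 in acute and 2917, 3073 and 2385 in chronic libraries, with overlap, and was not called (0.27 ± 0.11, adjusted p = 0.0796). Family members are close copies of each other, so counts could be split among them.

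Interferon-inducible GTPases, which attack the vacuoles of intracellular pathogens, fell in 16 of 17 tested genes (median -1.47). Gbp2 went from 1603, 1380 and 1327 to 202, 232 and 320 (-2.51 ± 0.19), and Gbp11 fell by 2.54 and Gbp10 by 2.51. Gbp3 was the member not called (-0.92). Of 11 tested over the pause region, 9 were lower. In MHC class I and antigen processing, 15 of 20 genes were lower and none was higher (median -0.67). The nonclassical H2-Q7 fell by 1.86 ± 0.11, from 8050, 9699 and 8119 to 2518, 2183 and 2416. The light chain B2m fell by 0.73, the classical heavy chain H2-K1 by 0.67, the peptide transporter Tap1 by 0.69 and Nlrc5, the transactivator of these genes, by 1.16. Tap2 (0.02) and Psmb8 (-0.16) were not called. H2 genes are near-identical in places, which could shift counts between them.

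**Figure D3:**
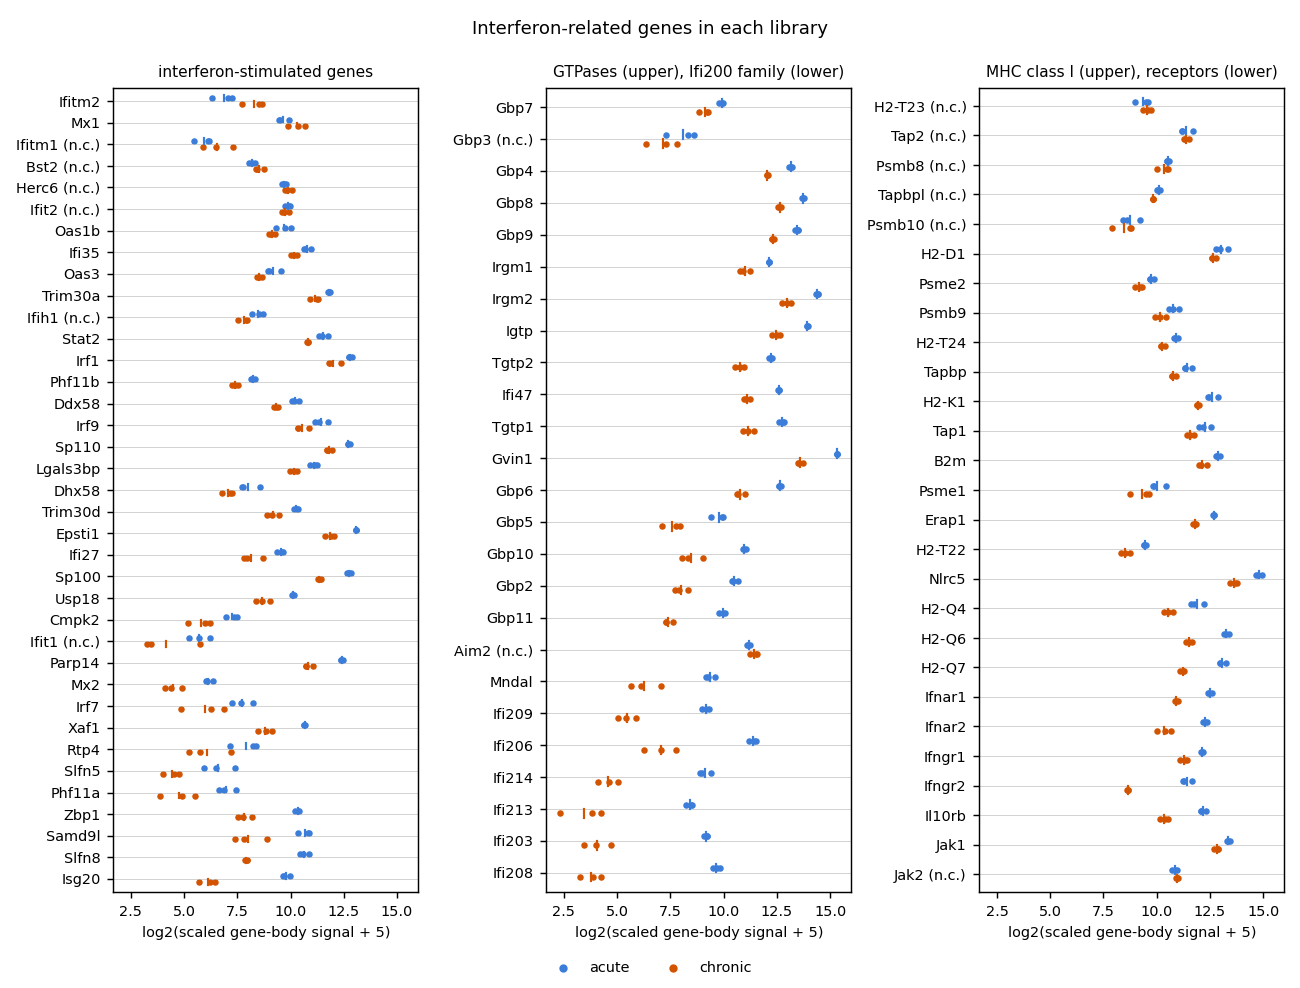
Scaled gene-body signal of interferon-stimulated genes, interferon-inducible GTPases, the Ifi200 family, MHC class I genes and receptor genes, as log2(signal + 5), with 1 point per library (blue acute, orange chronic) and a tick at the mean of 3 libraries; n.c. marks genes not called. Most genes lie lower in the chronic libraries, with Ifi203 and Ifi208 at the low end, and Aim2, Ifit2 and Jak2 show no such gap.

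Receptors for interferons fell together with their targets. Ifngr2, the signalling chain of the interferon gamma receptor, went from 2522, 3183 and 2444 to 399, 387 and 403 (-2.75 ± 0.15). The chains of the type I receptor, Ifnar2 (-1.92 ± 0.14) and Ifnar1 (-1.57 ± 0.10), and Il10rb, a shared chain of the IL-10 family receptors (-1.80 ± 0.12), were lower too. Ifngr1, on another chromosome, fell by 0.84 ± 0.10. Of the kinases that bind these receptors Jak1 fell by 0.55 and Jak2 (0.12) was not called.

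Several of these falls lay side by side on the chromosome. Runs of at least 4 neighbouring tested protein-coding genes all called in the same direction numbered 50 for higher and 28 for lower genes. The longest lower run held 10 genes from Irgm1 through Tgtp1, Tgtp2 and Ifi47 to Olfr1396 (chr11:48861968-49135387, GRCm38), with log2 fold changes from -2.71 to -1.16. The model of Olfr56 spans Tgtp1, Tgtp2, Ifi47 and Olfr1396, and Gm12185 overlaps other members, so the 10 are not separate measurements. The next 2 held 7 genes each: Abcg3 to Gbp6 (chr5:104935057-105293698) and Ifi206 to Ifi203 (chr1:173468485-173942672). Here too models overlap: Gbp9 and Gbp4 overlap Gbp8, Gbp10 and Gbp6 overlap Gm43302, and Mndal overlaps Ifi203. A run of 6 on chromosome 16 (chr16:91372783-91597800) joined Ifnar2, Gm21970, Il10rb, Ifnar1, Ifngr2 and Tmem50b, with log2 fold changes from -2.75 to -1.57. Gm21970 and Il10rb overlap and both stood at -1.80, so they are not separate measurements. The tested genes next to that run were 4932438H23Rik, called higher (2.40), and Gart, not called (0.12). Further out, Paxbp1 was higher (0.63) and Son lower (-0.26). Another run of 6 was the Slam receptor cluster, with Cd244a, Ly9, Slamf7, Cd48, Slamf1 and Cd84 (-1.36 to -0.78). The longest higher run, 15 genes on chromosome 18, was made of overlapping gamma protocadherin models that share exons, and Diaph1 beside them, so it holds few separate measurements. The higher runs of 6 included Alyref, Anapc11, Pcyt2, Sirt7, Mafg and Pycr1 on chromosome 11 (0.42 to 1.76).

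**Figure D4:**
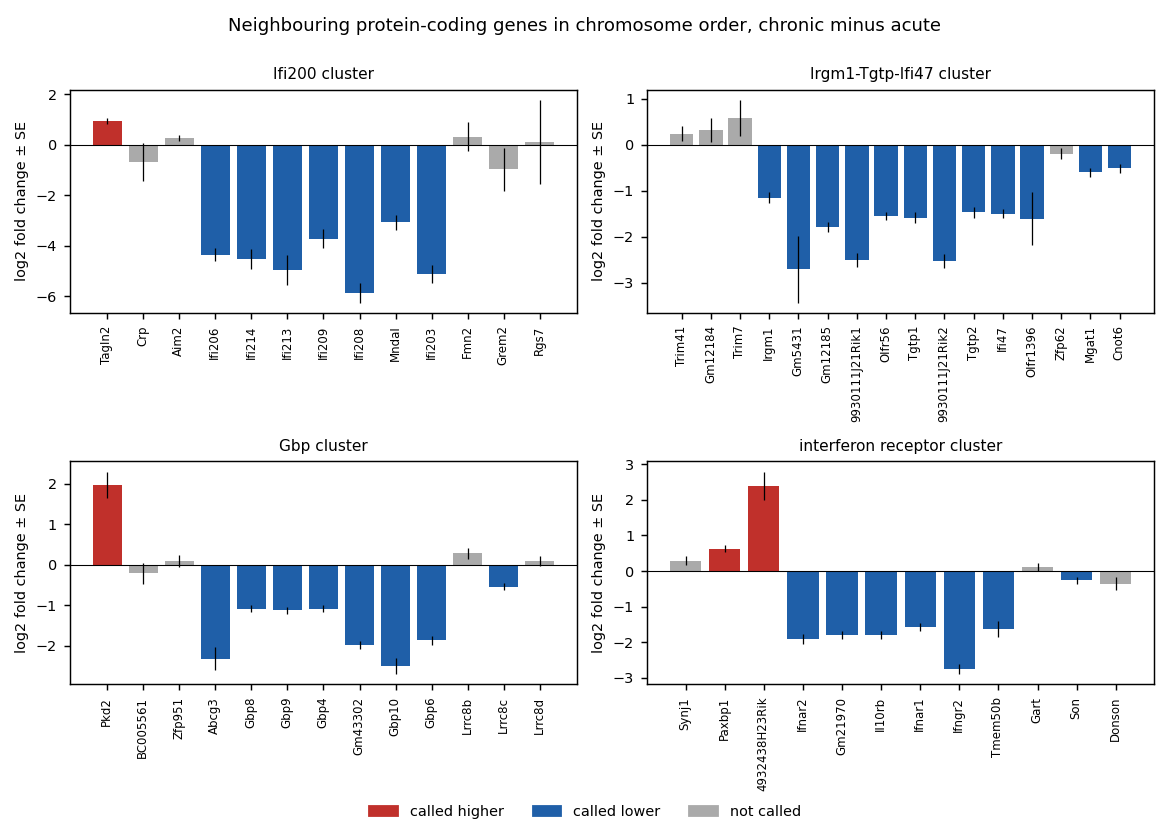
Gene-body log2 fold changes (chronic minus acute, bars, with SE as whiskers) of protein-coding genes in chromosome order across 4 lower runs and 3 tested neighbours on each side. Blue bars are called lower, red called higher and grey not called; the Ifi200 run reaches -5.87 while Aim2 beside it stands at 0.27.

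Of 21 tested cytokines and other secreted products, 14 were higher and 6 lower, with a median of 1.12. The largest value was that of Penk, the enkephalin precursor gene, which stood at 0 to 16.6 in acute and 539 to 781 in chronic libraries (6.09 ± 0.54). Il13, a type 2 cytokine, went from 305, 289 and 257 in acute to 8559, 9390 and 11352 in chronic libraries, without overlap (5.08 ± 0.20, adjusted p = 3.81e-12). Csf2, which encodes GM-CSF, went from 241, 169 and 351 to 5695, 6881 and 8182 (4.79 ± 0.21). Il10, an anti-inflammatory cytokine, went from 1123, 806 and 1142 to 12025, 14450 and 17623 (3.84 ± 0.15), and its neighbour and relative Il24 from 2550, 2507 and 3241 to 21120, 23856 and 31105 (3.19 ± 0.14). The myeloid growth factor gene Csf1 rose by 2.77 and the TNF family ligand Tnfsf14 by 2.61. The members of the TNF family that organise lymphoid tissue fell: Ltb went from 3712, 5835 and 4330 to 290, 409 and 253 (-3.85 ± 0.19), and Lta from 8002, 15670 and 11249 to 2710, 2675 and 3491 (-1.93 ± 0.22). Of the chemokines only 5 of 15 passed the filter. Ccl3 and Ccl4, neighbours on chromosome 11 that attract T cells and macrophages, rose by 5.22 ± 0.62 and 5.40 ± 0.48 from acute values of 1.28 to 40.4, and the other 3 were not called. Both were under 50 in every acute library, so they passed the filter by being high elsewhere.

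Cytokine receptors and their feedback genes leaned the other way, with 19 of 41 lower and 5 higher (median -0.27). Il18r1, which binds IL-18, went from 869, 810 and 758 to 95.3, 103 and 122 (-2.88 ± 0.21). Tgfbr1, the type I receptor of TGF-beta, went from 6550, 6156 and 6576 to 1301, 1339 and 1283 (-2.29 ± 0.09). The higher members were Il1r2 (1.95), a decoy receptor at a low level, Il12rb2 (1.06), Il12rb1 (0.63), Il2ra (0.57) and Tgfbr3 (0.32). Without acute replicate 2, 8 were higher. The shared IL-2 chain Il2rb (-0.05) and the STAT5 genes Stat5a (0.08) and Stat5b (-0.14) were not called. Among chemoattractant receptors 6 of 17 were higher and 4 lower (3 and 6 with library totals). Ptgir, the prostacyclin receptor, rose by 2.87, Ltb4r1, a leukotriene receptor, by 1.82 and Cxcr6 by 1.62, whereas Cxcr4 fell by 1.01.

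**Figure D5:**
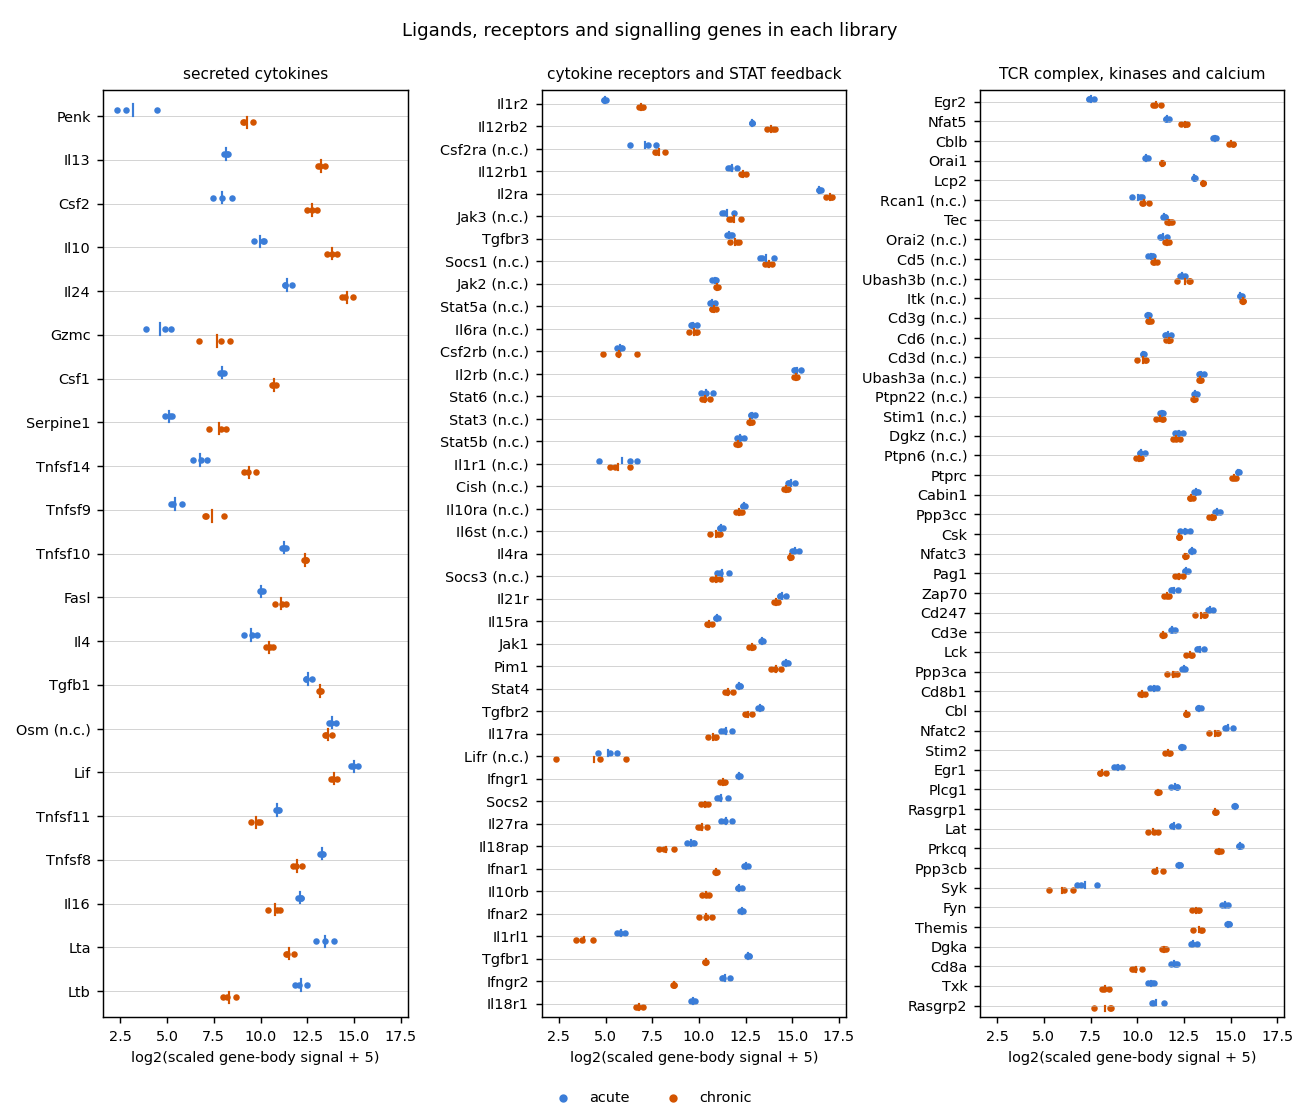
Scaled gene-body signal of secreted cytokines, cytokine receptors and T cell receptor signalling genes, as log2(signal + 5), with 1 point per library (blue acute, orange chronic) and a tick at the mean of 3 libraries; n.c. marks genes not called. Il13 and Csf2 lie higher and Ltb lower in the chronic libraries, while most receptor and signalling genes called lie lower.

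T cell receptor signalling genes were lower in 28 of 47 and higher in 6 (median -0.35). With the trend on gene length described below removed, 21 were lower and 6 higher. Cd8a, the co-receptor chain by which these cells are named, went from 3636, 4455 and 4156 to 837, 905 and 1197 without overlap (-2.07 ± 0.14), while Cd8b1 fell by 0.59. Of the CD3 chains Cd3e fell by 0.50, and Cd3d (-0.03) and Cd3g (0.09) were not called. Rasgrp2, an activator of the small GTPase RAP1, fell by 2.75 ± 0.26, as did the kinase genes Txk (-2.48 ± 0.20) and Fyn (-1.52 ± 0.11). Themis, a regulator of thymocyte signalling, went from 30416, 28102 and 30585 to 11090, 11399 and 8138. The adaptor Lat and the kinase gene Prkcq both fell by 1.12. Against this, Egr2, a transcription factor tied to anergy, went from 201, 163 and 167 to 2001, 1806 and 2488 (3.53 ± 0.23), and Cblb, a ubiquitin ligase that restrains signalling, rose by 0.90. Of 22 NF-kB genes 8 were higher and 4 lower (median 0.24; 2 higher and 9 lower with library totals), with the feedback gene Tnfaip3 at 1.99 and Nfkbiz, an atypical inhibitor gene, at -1.32.

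Homing and quiescence genes included some of the largest falls. Of 29 tested, 14 were lower and 8 higher, with a median of -0.27. S1pr1, the receptor that lets T cells leave lymphoid tissue, went from 4391, 5291 and 4580 to 269, 389 and 392 (-3.76 ± 0.16), and its activator Klf2 from 936, 1543 and 1062 to 209, 116 and 110 (-3.01 ± 0.26). Foxo1, upstream of Klf2, fell by 1.54 ± 0.10. The antiproliferative genes Tob1 (1.44) and Btg2 (1.27) were higher. In the GIMAP family, lymphocyte GTPases linked to survival, 6 of 8 were lower and none higher (median -0.69), with Gimap3 at -1.32. Of 7 Schlafen genes, Slfn1 (-2.95), Slfn8, Slfn5 and Slfn2 were lower and Slfn9 (1.55), Slfn10-ps and Slfn3 higher; the family is a cluster of close copies.

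Genes of DNA replication and nucleotide synthesis were higher in 34 of 47 and lower in none (median 0.78). Rrm2, the regulated subunit of ribonucleotide reductase, went from 2110, 2596 and 2485 to 7779, 9850 and 11813 without overlap (2.02 ± 0.14). Tyms, which makes thymidylate, went from 870, 1119 and 1279 to 4214, 4148 and 4729 (2.01 ± 0.13). Ccne2, a cyclin of S phase entry, rose by 2.22 and the repressor E2f8 by 1.98. Of the MCM helicase, Mcm2 (0.13), Mcm3, Mcm5 and Mcm6 were not called and Mcm7 rose by 0.82. Over the pause region 16 of 42 were higher and none lower. Mitosis genes were called higher in 28 of 39 and lower in none (median 0.65), with Mybl2, a cell cycle transcription factor, at 1.86 and the kinetochore gene Spc24 at 1.71. The lowest value of that list, -1.35, was not called. Mki67 was higher by only 0.27, and Top2a (-0.07) was not called. With library totals the replication list had 22 higher and 9 lower and the mitosis list 11 and 4.

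The promoter of Tyms is shown as the replication gene with the largest change that holds TTTNNCGC, a form of the E2F site; the letters occur in 14 of 41 promoters of the list and in 8.23% of all promoters. It lies on the minus strand at chr5:30073576-30073875 and runs 5′ to 3′, with the match in capitals.
Tyms: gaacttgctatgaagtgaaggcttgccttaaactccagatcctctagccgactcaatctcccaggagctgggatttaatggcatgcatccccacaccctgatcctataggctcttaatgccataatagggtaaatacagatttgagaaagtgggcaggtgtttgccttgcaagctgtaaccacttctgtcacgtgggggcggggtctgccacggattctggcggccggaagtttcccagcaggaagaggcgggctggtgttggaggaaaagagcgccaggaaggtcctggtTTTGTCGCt

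Of 33 cyclins, CDK inhibitors and p53 targets 18 were higher and 4 lower (median 0.44; 5 higher and 13 lower with library totals). The CDK inhibitor Cdkn1a went from 3218, 4588 and 4085 to 10208, 11211 and 11943 (1.50 ± 0.12), and the stress gene Gadd45b rose by 2.24. The lower genes were Ccng2 (-1.90), Ccnd3 (-1.20), Cdk6 (-0.72) and Ccnd2 (-0.55), the last 3 encoding the D cyclins of lymphocytes and their kinase. Of 18 replication-dependent histone genes 5 were higher and none lower (median 0.63), a count that was 3 without acute replicate 1, acute replicate 3 or chronic replicate 2, 2 without chronic replicate 3 and 9 without chronic replicate 1. Of 51 ribosome biogenesis genes 4 were higher and 10 lower (median -0.08). The higher share was under the 18% of all genes, and the lower share was above the 15.1%. With library totals 0 were higher and 42 lower. Without acute replicate 1, chronic replicate 2 or chronic replicate 3, 1 was higher. In the network of MYC, 2 of 11 were higher and 3 lower, to be read against 18% and 15.1% of all genes. Mxd1, an antagonist of MYC, went from 2643, 2952 and 2513 to 430, 260 and 422 (-2.88 ± 0.17), Max fell by 0.90, and Myc itself was not called (0.04).

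Outside all lists, the protein-coding genes that rose most without overlapping another gene were led by Marcks, a membrane-bound substrate of protein kinase C. It gave 44.6, 49.1 and 123 in acute and 1284, 1153 and 1555 in chronic libraries (4.24 ± 0.29). Lgals3, which encodes galectin-3, went from 284, 233 and 136 to 2304, 2580 and 2880 (3.60 ± 0.22). Cd83, an activation marker, went from 65.6, 121 and 82.9 to 997, 1129 and 965 (3.49 ± 0.30). The others were Adamts14 (4.05), Serpinb6b (4.03), Ehd2 (4.02), Efna5 (3.58), Tubb6 (3.54), Dennd3 (3.49), Ier3 (3.32), Fads3 (3.24) and Ier5l (3.17).

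Under the same terms, the genes outside all lists that fell most were mixed in kind. Left out of both rankings were genes that overlap another, Gm and Rik names and some genes with large changes that an earlier account gave. Tlr1, a sensor of bacterial lipopeptide, went from 1382, 1645 and 1397 to 68.1, 65.5 and 72.4 (-4.33 ± 0.22). Nod1, a cytosolic sensor of bacterial peptidoglycan, went from 935, 756 and 686 to 42.0, 88.5 and 58.6 (-3.60 ± 0.29). Cd86, a ligand of CD28, went from 433, 388 and 322 to 21.6, 37.6 and 25.3 (-3.56 ± 0.36), and Tnfrsf25, a TNF family receptor, fell by 3.48 ± 0.65. Ms4a4b, a CD20-like membrane protein gene, fell by 3.31, Serpina3g, a protease inhibitor, by 3.27, and Setbp1 by 3.82. The remaining genes were Nsg2 (-4.29), Pkhd1l1 (-4.12), Pgpep1l (-3.97), Nipal1 (-3.92) and Gpr83 (-3.82).

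Noncoding genes were led by the host genes of 2 microRNAs. Mir155hg, from which miR-155 is cut, went from 1691, 1538 and 1652 to 15559, 16932 and 15856, the groups being far apart (3.30 ± 0.10). Mir22hg, the host of miR-22, went from 223, 342 and 245 to 1302, 1361 and 1444 (2.34 ± 0.20). The values are of the host transcripts and not of the mature microRNAs. The 4 mature sequences from RefSeq (GRCm38.p6) are printed 5′ to 3′ with the seed, bases 2 to 8, in capitals; no 2 share a seed. Those of miR-155 lie at chr16:84714143-84714165 and chr16:84714182-84714202, and those of miR-22 at chr11:75463734-75463755 and chr11:75463772-75463793.
mmu-miR-155-5p: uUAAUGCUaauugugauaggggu
mmu-miR-155-3p: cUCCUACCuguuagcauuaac
mmu-miR-22-5p: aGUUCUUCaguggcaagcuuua
mmu-miR-22-3p: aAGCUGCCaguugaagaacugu

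Genes were taken as noncoding, for rises and falls alike, by their GENCODE M21 annotation alone. The others that rose most were Dubr (2.24), Eldr (1.68) and Ptprv (1.63). Ifngas1, a noncoding gene near Ifng, went from 1320, 1915 and 1260 to 134, 326 and 154 (-2.93 ± 0.38), opposite to Ifng (3.69). Prr33 (-2.85), Tmcc3os (-2.13), Nckap5los (-2.10) and Hectd2os (-1.70) also fell, and the last 3 are antisense genes whose signal could come from the partner strand. Of 20 hosts of small nucleolar RNAs and growth-related noncoding genes, Mir155hg and Neat1 (0.96) were higher, Mirt1 (-1.05) was lower and the rest were not called (median 0.03).

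Over the pause region 7674 genes were tested, 398 were higher (5.19%) and 416 lower (5.42%). The genes that rose most there were Csf2 (5.03 ± 0.34), Srgap3, a GTPase regulator (4.48 ± 0.54), and Il13 (4.47 ± 0.23), and those that fell most were Ifi206 (-5.52 ± 0.62), Ifi213 (-4.63 ± 0.89) and Ltb (-4.62 ± 0.19). All 6 changed in the same direction over the gene body. The filter of 50 was applied to the pause region on its own. A gene that passed it only through the group where it is high had to differ. Ifi213 had a mean pause-region signal of 120.5 in acute and 0 in chronic libraries. The same limit holds for the pause-region counts of the lists. Without acute replicate 1 the count of lower genes was 260. The difference between pause region and gene body was tested in 7409 genes, and none was called with limma (0.0%), while 297 had a higher and 439 a lower difference at an unadjusted p below 0.05. With a pseudocount of 20 in place of 5 there were 20 calls. The pausing index, the median log2 ratio of pause region to gene body in each library, was -4.19, -3.68 and -4.30 in acute and -3.61, -3.72 and -3.61 in chronic libraries. The second acute library stood with the chronic ones, and the difference was 0.41 (two-sided exact permutation p = 0.2, where 0.1 is the smallest value 3 against 3 libraries allow). Without acute replicate 2 it was 0.60. Of 36 genes of the machinery that releases paused polymerase, 7 were higher and 7 lower (median -0.01; 2 and 24 with library totals), shares near the 18% and 15.1% of all genes, with Ell2, an elongation factor, at 1.52 and Larp7, part of the complex that holds P-TEFb inactive, at -1.04. Without acute replicate 1 or acute replicate 3, 4 were higher.

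Gene length moved with the fold changes. In the shortest of 5 equal classes of tested genes (up to 6.54 kb) the median log2 fold change was 0.14, with 16.8% higher and 8.12% lower. In the longest class (from 82.3 kb) it was -0.32, with 12.9% higher and 19.3% lower. With a smooth trend on length taken off each library, 2709 genes were higher and 2457 lower. The sterol list then had 22 higher and 1 lower, the heat shock list 19 and 0 and the interferon-stimulated list 2 and 31. Some other lists moved more. Lower genes went from 28 to 21 in T cell receptor signalling, from 14 to 11 in TGF-beta, Notch and WNT signalling and from 19 to 22 in cytokine receptors. Chromatin regulators went from 11 higher and 14 lower to 9 and 9. Higher genes of the endoplasmic reticulum list went from 9 to 6. The part of length in single long genes was not tested.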

How the data were processed

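Nascent RNA was captured and sequenced as 100 bp paired-end reads. Per the submitters' processing notes, the authors used FastQC 0.12.0, Trim Galore 0.6.10, STAR 2.7.0a, SAMtools 1.19.2, deepTools 0.1.9 and R 4.1.2 with mm10. The deposited values are a coverage-like signal per transcript over the gene body and the pause region, not counts; their normalization and strand setting are not given in the sources used here, so the depth is unknown.

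Of 118482 rows, 117346 matched GENCODE M21 transcripts with version and 383 without. Each gene was represented by its row with the highest mean gene-body signal over 9 libraries, and 4 ribosomal RNA-like rows were dropped. Libraries were scaled by trimmed means of log ratios (30% of ratios and 5% of levels trimmed). Genes that reached 50 in 3 or more libraries were tested with limma 3.58.1 (R 4.3.3) on log2(signal + 5) over 9 libraries, with one mean per group, trend and robust moderation, and Benjamini-Hochberg adjustment at 0.05; every adjusted p given is from this test. The steps were tested on simulated data. Because of the added constant, fold changes of low genes are understated.

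Members and gene lists were chosen with earlier results of these data known. Named were up to 3 rises and 3 falls per list (mean at least 100, groups not overlapping), 12 each outside the lists (mean at least 200) and 5 each among noncoding genes; other members are given to show a list's course. Same-numbered libraries deviated together only weakly (correlations 0.093, 0.098 and 0.074), so they were not taken as pairs. Some genes are not reported here; they remain in the counts and medians of the lists.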

Additional observations from a re-analysis of the deposited data

How the results depend on the processing

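Scaling mattered most. With library totals 1092 genes were higher and 6844 lower over the gene body, on the deposited scale 1130 and 6713, and 3758 were lower when the ribosomal RNA-like rows were taken out of the totals. Over the pause region the counts were 120 and 1600 with library totals, 231 higher on the deposited scale, and 224 and 219 with a filter of 200. Leaving out single libraries gave 260 to 407 lower genes there. Calls of a changed difference between pause region and gene body numbered 4 with library totals, 2 on the deposited scale, 1 with a pseudocount of 0.5, 20 with a pseudocount of 20, 26 with no filter, 3 with a filter of 200 and 1 with the replicate block. The replicate block gave 2893 higher and 2390 lower genes over the gene body and 418 and 438 over the pause region, and every library correlated best with its own number, a hint from the data and not the design. Log2 fold changes turned negative with library totals and on the deposited scale for Slc2a1 (-0.40 and -0.38), Tap2 (-0.48 and -0.46), Jak2 (-0.38 and -0.36), Gart (-0.38 and -0.36), Sirt7 (-0.079 and -0.063), Tgfbr3 (-0.18 and -0.17), Stat5a (-0.41 and -0.40), Cd3g (-0.40 and -0.39), Slfn3 (-0.14 and -0.13), Mcm2 (-0.36 and -0.35), Mcm5 (-0.36 and -0.34), Mcm6 (-0.37 and -0.35), Mki67 (-0.23 and -0.21) and Myc (-0.45 and -0.44), and with library totals for Mcm3 (-0.31). Of these, Sirt7, Tgfbr3, Slfn3 and Mki67 were called higher in the run used above. The others were not called in that run and were called lower in the alternative. Named genes that changed sign without a call in either run are not in this list. Of 244 called genes named in the text, 217 kept their call and direction in every alternative run. For 36 of 42 lists the median kept its side of the median of all genes in all 19 alternatives. The gene length trend and its removal were chosen after seeing the data. The unknown depth limits what low signals can show.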

Other observations

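Several further groups were described by their counts, to be read against 18% higher and 15.1% lower of all genes. With library totals the counts were 6 higher and 20 lower (integrins and adhesion) and 2 and 19 (TGF-beta, Notch and WNT). They were 3 and 29 for chromatin regulators and 3 and 17 for mRNA decay regulators. Of 35 integrin and adhesion genes 18 were lower and 11 higher (median -0.57), with Ly6c2 at -3.65, a near-identical copy of Ly6c1, Itga6 at -1.91 and Plxnd1, a semaphorin receptor gene, at 3.24. Of 16 killer lectin-like and NK receptor genes 7 were higher and 5 lower (median 0.63; 2 and 6 with library totals). Klrc2 (2.89) and Klrc1 (2.66), which are close copies, rose, and Tyrobp, an adaptor of activating receptors, fell by 1.73. In TGF-beta, Notch and WNT signalling 14 of 32 were lower and 3 higher (median -0.31), with Nrarp, a Notch feedback gene, at -2.83 and Smad7 at -1.30. Of 45 chromatin regulators 14 were lower and 11 higher (median -0.14, or 0.003 with the trend on gene length removed), with Chd3 at -2.86 and Cbx2, a Polycomb gene, at 1.93. Of 24 mRNA decay regulators 10 were lower and 7 higher (median -0.06), with Zc3h12d at -1.51 and Zc3h12c at 1.54.

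Other lists were mixed, and their counts are to be read against 18% higher and 15.1% lower of all genes. With library totals they had 2 higher and 14 lower (BCL2 family), 3 and 11 (lysosome), 2 and 9 (clock), 1 and 5 (steroid) and 8 and 24 (transporters). Of 29 BCL2 family and death genes 7 were higher and 7 lower (median 0.08), with Bcl2l2 at 1.71 and Bcl2 at -0.98. Of 32 lysosome and autophagy genes 7 were higher and 4 lower (median 0.12), with the cathepsin genes Ctss at -2.03 and Ctsd at 0.97. Of 16 clock genes 4 were higher and 2 lower (median 0.04), with Dbp at -1.63 and Per1 at 1.14; without acute replicate 3, 2 were higher. Of 15 steroid and eicosanoid genes 4 were higher and 3 lower (median 0.34). Cyp11a1, the first enzyme of steroid synthesis, rose by 4.31. Of 49 transporter genes 15 were higher and 13 lower (median 0.07), with the purinergic receptor gene P2rx7 at -2.34 and Slc37a2 at 2.80.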
